A study of Caenorhabditis elegans with 2 samples.

Results

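The cytosolic ribosome of Caenorhabditis elegans is built from proteins whose nuclear genes are named rpl- and rla- for the large subunit and rps- for the small subunit, and the MBF-1 ChIP-seq signal at the starts of these genes is described here. The set holds every nuclear protein-coding gene with such a name in the Ensembl annotation of WBcel235, which is 81 of 19973 nuclear protein-coding genes. By name alone, 50 of these were counted as large subunit genes (47 rpl- and 3 rla- genes) and 31 as small subunit genes. The 70 nuclear genes named mrpl- or mrps-, which encode proteins of the mitochondrial ribosome, served as the contrast. Chromatin came from whole L2 larvae of mixed sex, strain OP427 (unc-119(ed3) III; wgIs427), in which a transgene supplies MBF-1 fused at its C-terminus to GFP and FLAG. The labels give 1 group with 2 biological replicates and no comparison group, so genes were compared with genes and replicate with replicate. The antibody target is entered as mbf-1. The labels give neither the promoter nor the copy number of the transgene. Whole larvae were used, so a region cannot be assigned to a tissue.

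Most ribosomal proteins are made in near equimolar amounts, and ribosomal protein genes are among the most highly transcribed in growing cells. The large subunit carries the peptidyl transferase centre and the exit tunnel, while the small subunit binds mRNA and decodes it. Many worm ribosomal protein genes have introns that hold snoRNA genes, and many worm mRNAs are trans-spliced to a spliced leader, so the annotated start of a gene can be a splice acceptor rather than the place where transcription begins. Multiprotein bridging factors, the family of MBF-1, are coactivators that in yeast link the activator Gcn4 to the TATA-binding protein.

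The deposited data are lists of regions, each with a summit and a signal value on the authors' scale. The candidate list of the pooled replicates held 30000 regions with signal values of at least 15.5 and a median of 20.5. The replicate 1 list held 19135 regions (lowest 10.9, median 13.7) and the replicate 2 list 23203 (lowest 9.99, median 12.9). Candidate lists hold background by design, so a region in one is not by itself evidence of binding. A stricter list, for which the authors used the irreproducible discovery rate (IDR, which asks whether replicates rank regions alike), held 132 peaks, 111 of them on nuclear chromosomes. Read depth is unknown here. A gene was given the region of highest signal whose summit lay within 500 bp of its start, and offsets are in bp along the gene, negative before the start. No list had a summit within 500 bp of the start of mbf-1.

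The DNA under the summits of the 4 IDR peaks highest at ribosomal protein genes, and of the peak at rps-1, is shown because these are the strongest regions of the set. Each line gives 121 bases centred on the pooled summit, read 5′ to 3′ on the strand of the gene, from RefSeq's copy of WBcel235 (the assembly also called ce11). The windows are chrIII:3867510-3867630 (plus strand) for rpl-3, chrIV:4750029-4750149 (minus strand) for rpl-20, chrIV:654914-655034 (minus strand) for rpl-15, chrIII:7854623-7854743 (plus strand) for rpl-35 and chrIII:4475581-4475701 (plus strand) for rps-1. Capitals mark the word TACGGT, which was noticed in the sequences and is absent from the rpl-35 window.
rpl-3: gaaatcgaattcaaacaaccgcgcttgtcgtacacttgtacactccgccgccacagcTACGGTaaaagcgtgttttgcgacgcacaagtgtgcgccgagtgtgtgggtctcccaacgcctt
rpl-20: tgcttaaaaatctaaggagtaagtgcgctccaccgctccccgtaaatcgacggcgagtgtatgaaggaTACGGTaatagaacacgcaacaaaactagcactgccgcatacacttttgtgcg
rpl-15: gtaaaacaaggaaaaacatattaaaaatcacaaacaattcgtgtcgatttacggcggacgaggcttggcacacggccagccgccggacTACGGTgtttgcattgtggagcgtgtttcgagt
rps-1: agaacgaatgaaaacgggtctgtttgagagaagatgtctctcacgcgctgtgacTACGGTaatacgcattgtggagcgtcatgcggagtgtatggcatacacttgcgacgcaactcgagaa
rpl-35: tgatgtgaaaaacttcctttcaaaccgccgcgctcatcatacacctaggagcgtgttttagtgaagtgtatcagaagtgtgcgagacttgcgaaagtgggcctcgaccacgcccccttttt
The same word on the other strand, ACCGTA, lay under the summits at rpl-11.2 (chrX:2242902-2243022, minus strand) and rpl-21 (chrIII:8130491-8130611, minus strand), which had no IDR peak and are shown as weaker regions with the word.
rpl-11.2: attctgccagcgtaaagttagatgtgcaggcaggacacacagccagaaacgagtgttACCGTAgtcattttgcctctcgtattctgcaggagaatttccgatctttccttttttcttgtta
rpl-21: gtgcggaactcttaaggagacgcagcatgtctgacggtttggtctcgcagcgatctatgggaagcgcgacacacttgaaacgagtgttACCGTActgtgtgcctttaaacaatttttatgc
A longer word, TTTAGGCC or GGCCTAAA on the other strand, is in capitals in the windows of rpl-2 (chrV:20479281-20479401, plus strand) and rpl-26 (chrII:8602507-8602627, plus strand).
rpl-2: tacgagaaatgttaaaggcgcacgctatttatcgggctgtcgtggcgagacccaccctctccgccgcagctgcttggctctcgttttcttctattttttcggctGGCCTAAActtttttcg
rpl-26: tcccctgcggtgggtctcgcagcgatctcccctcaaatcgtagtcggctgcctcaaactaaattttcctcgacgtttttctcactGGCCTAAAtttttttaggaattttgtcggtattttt

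Within 100 bp of the summit, on either strand, TACGGT occurred in 11 of 50 distinct regions at ribosomal protein genes (22.0%), in 5.26% of 38 regions at mitochondrial ribosomal protein genes and in 5.10% of 5720 regions at all protein-coding starts. By list, 5 of the 7 IDR peaks at ribosomal protein genes held it (rpl-3, rpl-15, rpl-20, rps-1 and rps-20), against 5 of 39 IDR peaks at other coding starts and 1 of 65 IDR peaks at no coding start. The word lay 0 bp from the summit at rpl-3 and at rpl-11.2, 3 bp at rps-1 and 11 bp at rpl-20. It lay 27 bp away at rps-20 and 31 bp away at both rpl-15 and rpl-21. At the rest of the 11 regions the distance was 51 to 88 bp. At the other members with a region and the word before the start, the nearest copy lay 104 to 714 bp from the summit. In the 500 bp before the start, however, TACGGT was as frequent in ribosomal protein genes with a pooled region (23 of 53, 43.4%) as in those without one (13 of 28, 46.4%), against 15.7% of mitochondrial ribosomal protein genes and 13.9% of all protein-coding genes. Among all 6-base words ordered by the excess of their share over that at all coding starts, TACGGT stood in place 20 and AAATCG in place 1 (25 of 50 regions against 21.6%). TTTAGGCC was first among all 8-base words, in 10 of 50 regions against 2.63% at mitochondrial ribosomal protein genes and 0.577% at all coding starts. In the 500 bp before the start it occurred in 27.2% of ribosomal protein genes, 1.43% of mitochondrial ribosomal protein genes and 1.65% of all genes. It was found before the start of 17 of 53 ribosomal protein genes with a region (32.1%) and 5 of 28 without (17.9%). Both words were picked from these same sequences, so their counts are a description with no test.

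A pooled candidate region lay at the start of 53 of the 81 ribosomal protein genes (65.4%), against 39 of 70 mitochondrial ribosomal protein genes (55.7%) and 31.0% of all nuclear protein-coding genes. The 53 genes had 50 distinct regions. As a ratio to the share of all genes, but not as a difference of shares, the excess was larger among strong regions. Of the 81 ribosomal protein genes, 31 (38.3%) had one of the 3000 pooled regions of highest signal. So did 10 of 70 mitochondrial genes (14.3%) and 4.60% of all genes. IDR peaks lay at 7 ribosomal protein genes (8.64%), at no mitochondrial ribosomal protein gene, and at 0.295% of all genes. The 28 ribosomal protein genes without a pooled region were 18 of the large and 10 of the small subunit, and 19 of them had no region in either replicate list. For these 19 the matching share over all coding genes was not computed. Those 19 include rla-0 and rla-1, which encode proteins of the acidic stalk, and rpl-5 and rpl-11.1, whose yeast counterparts bind 5S rRNA. These functions do not mark the genes without a region, because the stalk gene rla-2 (19.1) and rpl-11.2 (49.8) had a pooled region. Ranking all members and placing those without a region lowest, the median pooled signal was 22.7, against 16.3 for mitochondrial ribosomal protein genes, and the median coding gene had no region.

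**Figure D1:**
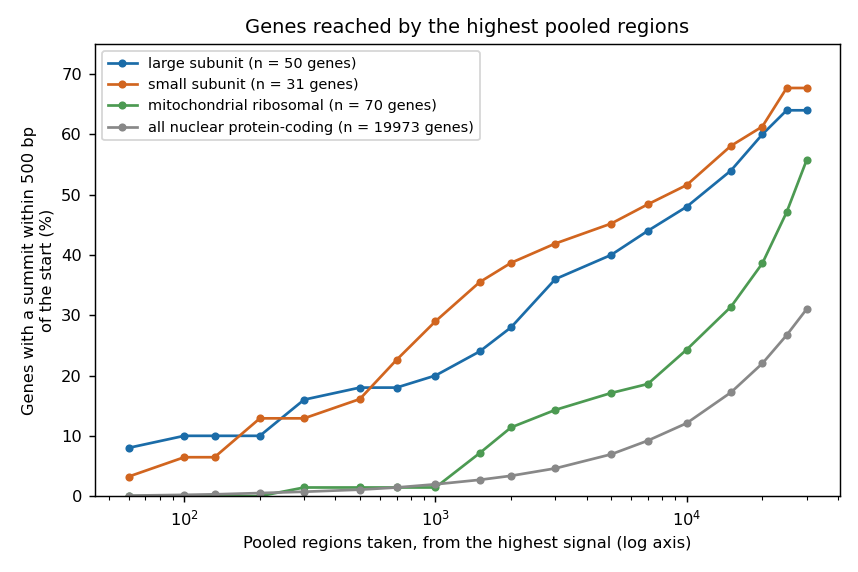
Share of genes with a summit within 500 bp of the start (vertical axis, percent) as more regions of the pooled list are taken from the highest signal down (horizontal axis, log scale), for large subunit, small subunit, mitochondrial ribosomal and all nuclear protein-coding genes. Among the 3000 highest regions the shares were 36.0%, 41.9%, 14.3% and 4.60%, and in the whole list 64.0%, 67.7%, 55.7% and 31.0%.

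By the highest region within 500 bp, the 2 subunits had similar shares of genes with a candidate region. A pooled region lay at 32 of 50 large subunit genes (64.0%) and 21 of 31 small subunit genes (67.7%), a difference of -3.74 percentage points. In replicate 1 the shares were 40.0% of large and 45.2% of small subunit genes, and in replicate 2 they were 64.0% and 67.7%. The 3000 pooled regions of highest signal reached 18 large subunit genes (36.0%) and 13 small subunit genes (41.9%). IDR peaks lay at 5 large and 2 small subunit genes. Median pooled signals with absent regions lowest were 22.5 for the large subunit and 23.6 for the small subunit. The highest signal was at a large subunit gene, 197 at rpl-3, against 82.3 at rps-1 for the small subunit. Genes are not replicates, so no test was run on these differences.

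**Figure D2:**
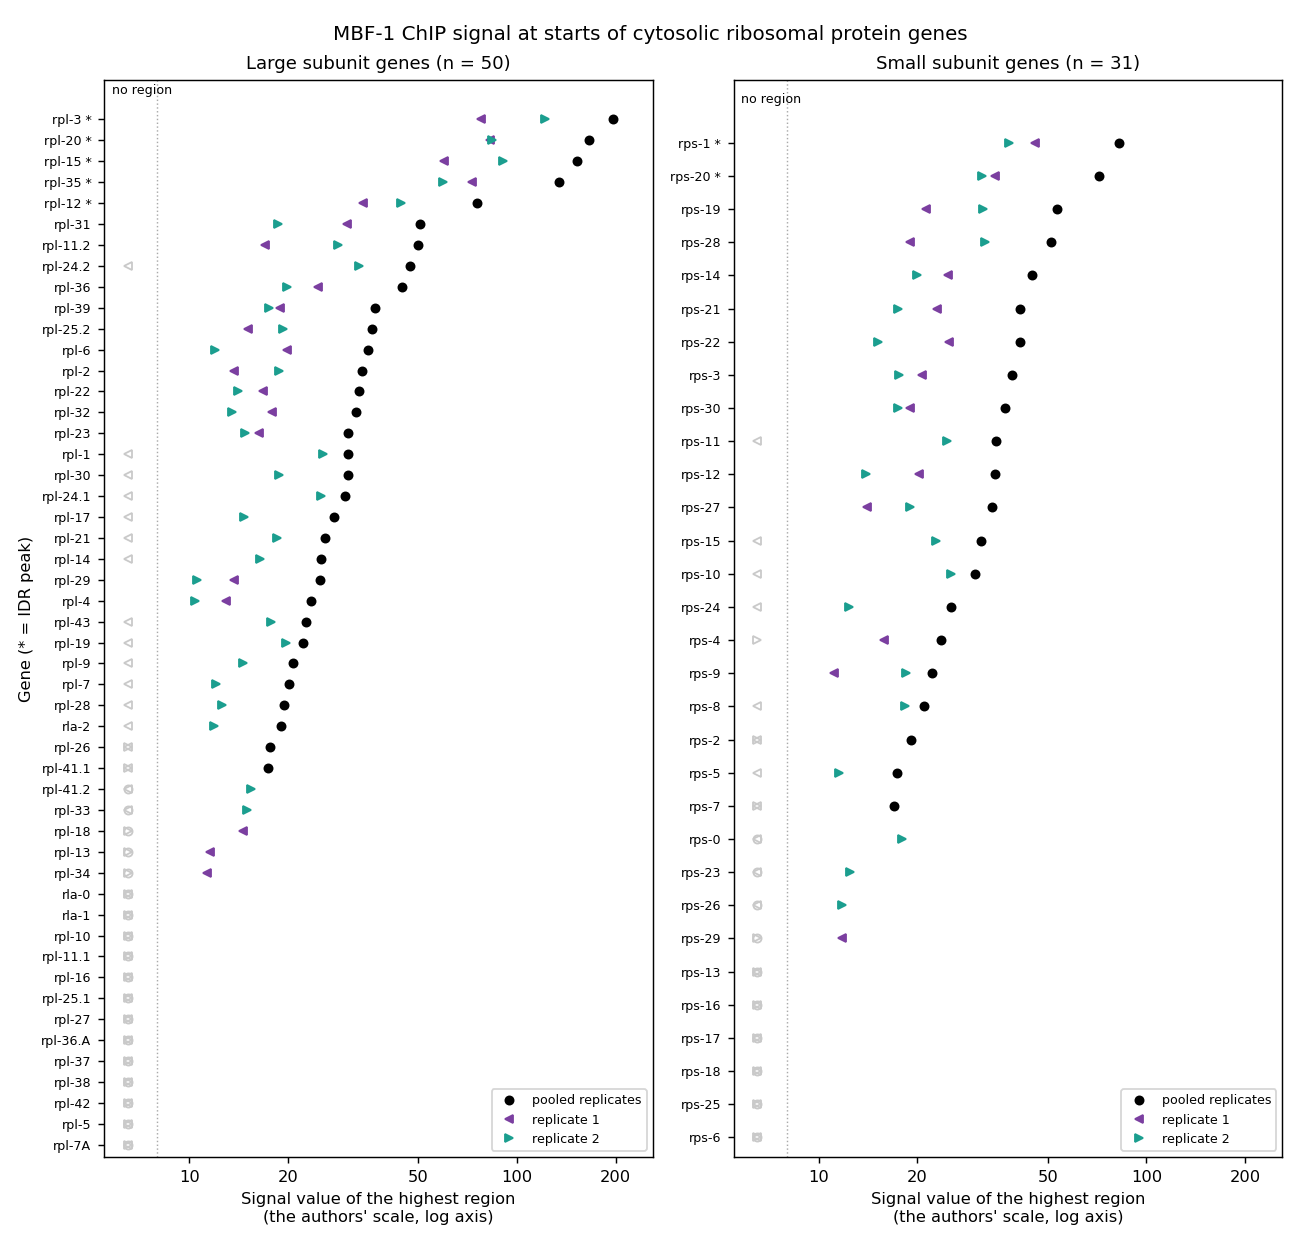
Signal value of the highest region at each of the 50 large (left) and 31 small (right) subunit genes on a log axis, with 1 symbol for each list, open symbols at the left edge for no region, and an asterisk for an IDR peak. The 4 large subunit genes at the top, rpl-3, rpl-20, rpl-15 and rpl-35, had pooled signals of 134 to 197 and stand apart from all other members, which reached at most 82.3.

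Among large subunit genes the strongest region was that of rpl-3, whose yeast counterpart lies near the peptidyl transferase centre. Its signal values were 77.8 in replicate 1, 122 in replicate 2 and 197 in the pooled list, the highest of the 46 IDR peaks at coding starts, with the pooled summit at -284. The next members were rpl-20 (82.6, 83.8 and 166 for replicate 1, replicate 2 and pooled), rpl-15 (59.9, 90.6 and 153) and rpl-35 (72.8, 59.6 and 134). The lowest of these replicate values was 59.6, against at most 45.6 among all other members. Their pooled summits lay at -311, -398 and -451 in that order. The rpl-20 summit was nearer to the start of the neighbouring gene Y17G9B.5, at 151 bp, and the rpl-15 region also lay within 500 bp of the start of K11H12.8. The fifth IDR peak, at rpl-12, had 33.9 in replicate 1, 44.4 in replicate 2 and 75.4 in the pooled list, and lay closer to the start: its summit was at 20 in the pooled list, in the untranslated region of the gene, at 22 in replicate 2 and at -97, before the start, in replicate 1. The region was chrIV:13240441-13240820.

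Below the IDR threshold, large subunit genes formed a graded series. The region at rpl-31, whose yeast counterpart is at the exit of the tunnel, had a pooled signal of 50.6 (30.4 in replicate 1, 18.7 in replicate 2), and sac-2 had the nearest start. Values at rpl-11.2 were 17.1 in replicate 1, 28.4 in replicate 2 and 49.8 pooled. At rpl-24.2 the pooled value was 47.3 and the replicate 2 value 33.0, with no region in replicate 1. Next came rpl-36 at 44.6, rpl-39 at 37.0 and rpl-25.2 at 36.1 in the pooled list, all with regions in both replicates. The remaining 21 large subunit genes with a pooled region had values of 17.4 to 35.1. The stalk gene rla-2 had 19.1 pooled and 11.9 in replicate 2.

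Among small subunit genes, rps-1 had 45.6 in replicate 1, 38.1 in replicate 2 and 82.3 in the pooled list, at chrIII:4475451-4475830. Its summit lay 277 bp before the start, within an exon of the non-coding RNA gene F56F3.10, and the region was also at the start of ifet-1. The other IDR peak was at rps-20, with 34.5 in replicate 1, 31.6 in replicate 2 and 71.9 pooled, and its summit lay at -192 between genes. These 2 genes were the highest small subunit genes in replicate 1, while in replicate 2 rps-19 (31.8) and rps-28 (32.1) were close to rps-20 (31.6). Pooled values were 53.3 at rps-19 and 51.0 at rps-28, with 21.2 and 19.0 in replicate 1. The next were rps-14 at 44.6, rps-21 at 41.1, rps-22 at 41.0, rps-3 at 38.8 and rps-30 at 37.0. The yeast counterpart of rps-3 lines the channel by which mRNA enters. The other 12 small subunit genes with a pooled region had values of 17.0 to 34.7.

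Genes whose names differ only by the number after a point were compared by name, and whether they are paralogs was not checked. A pooled region was present at rpl-11.2 (49.8) and absent at rpl-11.1, and present at rpl-25.2 (36.1) and absent at rpl-25.1. Both rpl-24.1 (29.9) and rpl-24.2 (47.3) had one. At the rpl-41 pair, rpl-41.1 had a pooled value of 17.4 with no region in either replicate, and rpl-41.2 had only a replicate 2 region, at 15.4. No region at a gene means only that the list held no summit within 500 bp of its start, and no value of 0 was measured.

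Replicates differed in how many of these genes they listed. Regions lay at 34 ribosomal protein genes in replicate 1 (42.0%, against 25.7% of mitochondrial ribosomal protein genes and 20.1% of all genes) and at 53 in replicate 2 (65.4%, against 42.9% and 25.5%). When the longer replicate 2 list was limited to the length of the replicate 1 list, it held 51 ribosomal protein genes (63.0%, against 21.5% of all genes). Both replicates listed 29 genes (35.8%), against 15.7% of mitochondrial ribosomal protein genes and 8.84% of all genes. Of the replicate 1 genes 85.3% were also in replicate 2, against 61.1% for mitochondrial ribosomal protein genes and 43.9% for all genes. Of the replicate 2 genes 54.7% were also in replicate 1, against 36.7% and 34.7%. Replicate 2 shared 48 of its 53 genes with the pooled list (90.6%, against 76.7% for mitochondrial ribosomal protein genes and 72.4% for all genes). Replicate 1 shared 30 of its 34 (88.2%, against 94.4% and 77.2%). The pooled list was called on the same replicates, so it is not an independent list.

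Over the 29 genes in both lists, the median distance between the summits of the 2 replicates was 31 bp. It was 43 bp over 11 mitochondrial ribosomal protein genes and 108 bp over all genes. Summits lay within 100 bp at 21 of 29 genes (72.4%), against 9 of 11 mitochondrial genes (81.8%) and 47.5% of all genes. The rank correlation (Spearman) of the replicate values was 0.745 for large and 0.231 for small subunit genes. For mitochondrial ribosomal protein genes it was -0.151, and for all genes 0.251. The largest disagreement in order was at rps-22, with 24.9 in replicate 1 (place 9 of 29) and 15.2 in replicate 2 (place 22). At rpl-2 the values were 13.7 in replicate 1 and 18.8 in replicate 2. At rps-9 they were 11.1 and 18.5, with the summits on either side of the start, at -59 and 483. The next 4 genes were tied, at a difference of 11 places: rpl-6 had 19.9 in replicate 1 and 12.0 in replicate 2, whereas rpl-11.2, rpl-25.2 and rps-27 were higher in replicate 2.

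**Figure D3:**
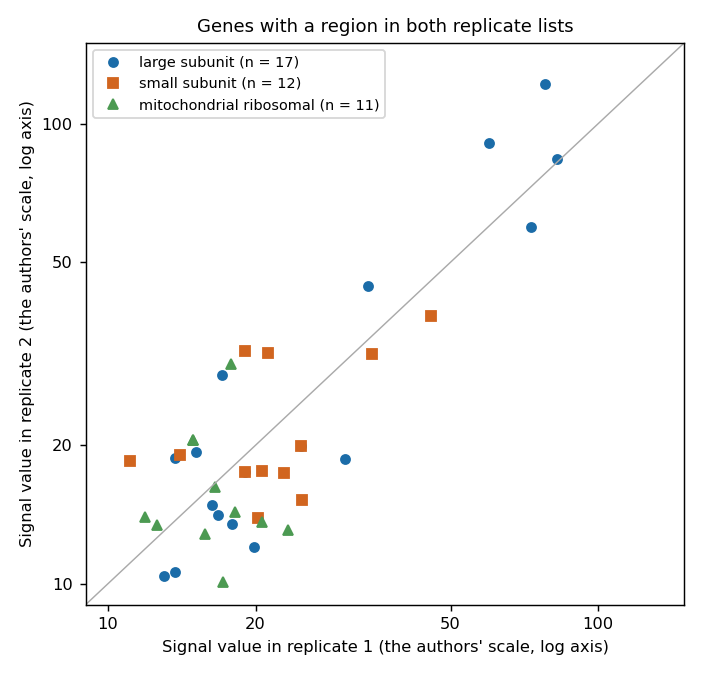
Signal values of genes with a region in both replicate lists, replicate 1 on the horizontal and replicate 2 on the vertical log axis, with 17 large subunit, 12 small subunit and 11 mitochondrial ribosomal genes as points and equality as the line. The 4 large subunit genes at the upper right have values of 59.6 to 122 in the 2 replicates, and all other points lie at or below 45.6.

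Summits lay well before the annotated starts. Of the 53 genes, 47 (88.7%) had the summit before the start, against 32 of 39 mitochondrial ribosomal protein genes (82.1%) and 61.9% of all genes. Initiation and elongation factor genes, described below, had a similar share. The median offset was -277 bp with quartiles of -348 and -180, against -179 for mitochondrial ribosomal protein genes and -104 for all genes. Between 150 and 450 bp before the start lay 39 of the 53 summits (73.6%), against 48.7% and 38.4%. Medians were -288 for large and -257 for small subunit genes. Each replicate gave nearly the same picture, with 32 of 34 summits before the start in replicate 1 and 47 of 53 in replicate 2, and medians of -276 and -281. The few summits after the start included those of rpl-12 at 20, rpl-19 at 176, rpl-14 at 337 and rpl-41.1 at 364. Summits near the limit of the window were those of rpl-22 (-486, signal 33.0), rps-7 (483, signal 17.0), rpl-28 (479, signal 19.5) and rpl-7 (-478, signal 20.2) inside it, and a second region at rps-3 (525, signal 22.5) outside it.

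**Figure D4:**
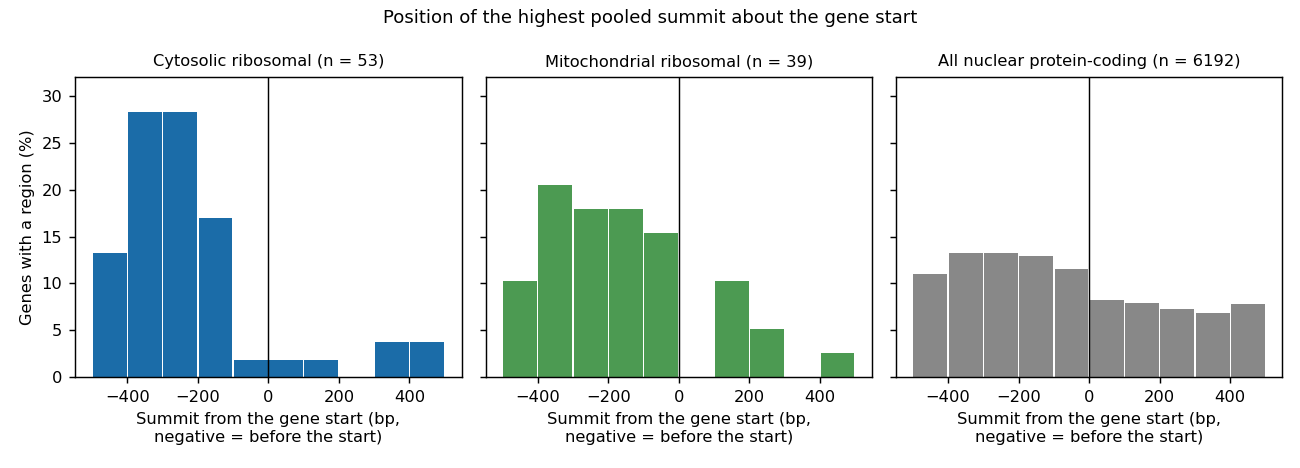
Position of the highest pooled summit along the gene in bins of 100 bp (horizontal axis, 0 is the annotated start) as the share of genes with a region (vertical axis), for 53 cytosolic ribosomal, 39 mitochondrial ribosomal and 6192 nuclear protein-coding genes. In ribosomal protein genes the bins from -400 to -200 hold 28.3% of genes each, while in all protein-coding genes no bin exceeds 13.3%.

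The distance to the start set how many of these genes were counted. With a window of 200 bp only 13 of 81 ribosomal protein genes had a pooled region, against 18 of 70 mitochondrial ribosomal protein genes (25.7%) and 13.4% of all genes, so at that distance the ribosomal protein genes were close to the background share. With 1000 bp there were 57 (70.4%), against 50 of 70 mitochondrial ribosomal protein genes (71.4%) and 49.2% of all genes, so the higher share of cytosolic than of mitochondrial ribosomal protein genes seen at 500 bp was not present at either other distance. In 69 of 81 ribosomal protein genes (85.2%) the letters AG stood directly before the annotated start, against 77.1% of mitochondrial ribosomal protein genes and 27.6% of all genes, and in 49.4% the 6 letters were TTTCAG, against 35.7% and 12.3%. The median distance from the annotated start to the start codon was 8 bp, against 3 bp in mitochondrial ribosomal protein genes and 15 bp in all genes. The places where transcription begins were not analysed here.

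Neighbouring genes lay close to many of the regions. Another coding start lay within 500 bp of 22 of the 81 genes (27.2%), against 31.4% of mitochondrial ribosomal protein genes and 11.2% of all genes. For 28 of 53 genes (52.8%, against 15.1% of all genes with a region) the same region was also the highest at another coding gene. For 37 of the 53 genes (69.8%) no other coding start was nearer to the summit. The share was 74.4% at mitochondrial ribosomal protein genes and 92.2% over all genes with a region. Counting a region only for its nearest coding start left 40 genes with one (49.4%, against 42.9% of mitochondrial ribosomal protein genes and 28.8% of all genes). Counting it only for the nearest start of any gene left 31 of 81 (38.3%), below the 30 of 70 mitochondrial ribosomal protein genes (42.9%) and above the 26.9% of all genes. Pairs of ribosomal protein genes on opposite strands shared 3 regions: rps-10 and rpl-24.1 (29.9), rps-14 and rpl-36 (44.6), and rpl-39 and rps-30 (37.0). Signal at such a region cannot be assigned to 1 of the 2 genes. Among the 38 genes with no other gene start within 500 bp, 23 had a region (60.5%, against 30.5% of all such genes), 19 of them before the start.

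Most summits, 38 of 53 (71.7%), fell between genes, against 66.7% at mitochondrial ribosomal protein genes and 50.4% of all genes. Inside the ribosomal protein gene itself lay 6 (11.3%), against 17.9% and 37.3%. In an exon of a non-coding RNA gene lay 7 (13.2%), against 0 of 39 at mitochondrial ribosomal protein genes and 1.92% of all genes. snoRNA genes lay inside 13 of the 81 genes, against 0.961% of all genes. A pooled region was present at 9 of these 13 hosts (69.2%, against 45.8% of all coding genes that hold a snoRNA gene) and at 44 of the 68 other members (64.7%, against 30.9% of all coding genes without one). The summit was before the start at all 9 hosts, against 64.8% of all such hosts with a region. By chromosome, regions were found at 13 of 18 genes on III (72.2%, against 36.1% of all coding genes there) and 17 of 25 on I (68.0%, against 32.9%). They were found at 12 of 18 on IV (66.7%, against 32.3%) and 5 of 8 on V (62.5%, against 29.4%). On II they were at 5 of 10 (against 27.4%) and on X at 1 of 2 (against 30.0%). Over all coding genes, too, the share was highest on III. The IDR peaks fell on III (3), IV (3) and I (1), and 11 of the 18 genes on III had one of the 3000 highest pooled regions. For these counts the shares over all coding genes of each chromosome were not computed, so they are not read as a difference between chromosomes.

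Another 7 motifs were searched on both strands in the 300 bases about each start, from 250 before to 50 after it, and within 100 bp of the summits. Around starts, TTTCAG was present in 70.4% of ribosomal protein genes, 67.1% of mitochondrial ribosomal protein genes and 51.7% of all genes, a word that includes the splice acceptor described above. TTTTTT was in 91.4%, 92.9% and 80.1%, and TATAAA, the core of the TATA box, in 27.2%, 34.3% and 37.9%. GAGAGA was in 21.0%, 21.4% and 21.8%. CACGTG, an E-box, was in 1.23%, 7.14% and 5.82%, CCGCCC in 3.70%, 8.57% and 7.83%, and TGANTCA in 7.41%, 4.29% and 10.4%. About summits, TGANTCA, the word bound by Gcn4 in yeast, was in 6 of 50 regions at ribosomal protein genes, 2.63% at mitochondrial ribosomal protein genes and 6.31% at all coding starts, and GAGAGA in 9 of 50, 2.63% and 11.0%. The G+C content within 100 bp of the summit was 37.8%, against 32.6% and 31.8%, while around the starts it was 33.0%, against 32.3% and 34.3%. Most bases of this window were repeat-masked in the reference in 19 of 50 regions (38.0%), 42.1% and 30.7%.

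Mitochondrial ribosomal protein genes had weaker regions. The highest were mrpl-28, with 17.8 in replicate 1, 30.0 in replicate 2 and 48.7 pooled, mrps-25, with 23.3, 13.1 and 36.0, and mrpl-1, with 14.9, 20.5 and 35.1. The last region was shared with mrps-24. Of the members with a pooled region, 11 were above 48.7.

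Other genes of translation were counted in the same way. Pooled regions lay at 25 of 39 initiation and elongation factor genes (64.1%), 13 of 29 ribosome assembly genes (44.8%), 11 of 32 aminoacyl-tRNA synthetase genes (34.4%) and 4 of 10 genes for subunits of RNA polymerases I and III (40.0%), against 31.0% of all genes. The 3000 highest pooled regions reached 9 of the 39 initiation and elongation factor genes, 3 of the 29 assembly genes, 1 of the 32 synthetase genes and 1 of the 10 polymerase genes, against 4.60% of all genes. Summits lay before the start at 22 of the 25 factor genes with a region (median -210 bp) and 11 of the 13 assembly genes (-121). The share of factor genes was thus similar to the 88.7% of ribosomal protein genes. For synthetase genes it was 7 of 11 (-50) and for polymerase genes 1 of 4 (220). IDR peaks lay at eif-3.C, a subunit of the initiation factor eIF3 (39.5 in replicate 1, 38.4 in replicate 2 and 68.6 pooled), and at pro-1, an assembly gene (34.7, 35.8 and 62.7). Pooled values were 52.4 at iff-2, an eIF5A gene, 35.3 at ruvb-2, 34.4 at kars-1, 31.4 at rpac-19, 28.4 at ears-2 and 24.7 at rpoa-1. For the nascent chain factors, icd-2 and icd-1 had 50.9 and 31.3, and rack-1, which binds the small subunit, had 20.7 in the pooled list, with no region in either replicate. The gene ubl-1, which encodes a small subunit protein fused to a ubiquitin-like part, had 35.0 pooled and 25.2 in replicate 2, and ubq-2, which encodes a large subunit protein fused to ubiquitin, had no region in any list.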

How the data were processed

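The deposited data are narrowPeak lists in ce11 coordinates. Per the file lists deposited beside them, candidate regions were called by the authors per replicate and on the pooled replicates against a control alignment, and the IDR list was derived from these. The peak caller, aligner, settings and the scale of the signal were not stated in the sources used here, so the authors' deposited signal value was used only to rank and describe regions within a list. Lists in ce10 coordinates were not used. Read depth is unknown.

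Gene starts came from Ensembl release 115 (WBcel235). With Python 3.11.15 and NumPy 2.4.6, each gene took the region of highest signal whose summit lay within 500 bp. Shares are set beside those of all 19973 nuclear protein-coding genes, and no test over genes was made. The assignment was tested on simulated regions. The labels name 2 biological replicates of 1 group. Alternatives were other windows and start definitions, overlap with the start, nearest-gene rules, list lengths and each replicate alone. The members and lists were chosen with earlier results of these data known. Alternatives for the side of the summit and for the length of the replicate 2 list, and the words TACGGT and TTTAGGCC, were chosen after seeing the data. Genes named were members with an IDR peak, the 20 members of highest pooled signal and the 5 with the largest rank disagreement (with ties). Also named were members whose names differ only by the number after a point, and summits within 25 bp of the window limit. Further names were ubl-1, ubq-2 and rack-1, and the highest genes of the contrast lists. The genes rla-, rpl-5, rpl-14 and rpl-19 and those whose motif windows are printed were named after their values were seen. So were Y17G9B.5, K11H12.8, ifet-1, sac-2 and F56F3.10.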

Additional observations from a re-analysis of the deposited data

How the results depend on the processing

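The count of ribosomal protein genes with a pooled region, 53, was 53 with any transcript start (65.4%, against 34.2% of all genes). It was also 53 with the first base of the coding sequence (65.4%, against 30.3%). Within 1000 bp it was 57 (70.4%, against 49.2%) and by nearest coding start 40 (49.4%, against 28.8%). With the pooled list limited to the length of the replicate 1 list it was 49 (60.5%, against 21.2%). It was 13 within 200 bp, 11 where the region had to overlap the start and 31 by the nearest start of any gene. With 1 replicate left out it ranged from 34 (42.0%, against 20.1%) to 53 (65.4%, against 25.5%). IDR peaks, 7 genes, became 2 within 200 bp (2.47%, against 0.0901% of all genes) and 1 by overlap (1.23%, against 0.0801%). A longer list of the highest pooled regions reached 11 genes (13.6%, against 0.661%). The 132 highest regions of either replicate alone also reached 7 genes (8.64%), in replicate 2 with rpl-24.2 in place of rps-20. They reached 0.230% of all genes in replicate 1 and 0.350% in replicate 2. Replicate 1 counts, 34, were 9 within 200 bp (11.1%, against 8.28% of all genes) and 8 by overlap (9.88%, against 7.82%). By the nearest start of any gene they were 22 (27.2%, against 17.3%). Replicate 2 counts, 53, were 15, 13 and 29 under those settings, and 35 by nearest coding start. The mitochondrial count, 39, was 18 within 200 bp (25.7%, against 13.4% of all genes) and 18 by overlap (25.7%, against 12.7%). With a replicate left out it was 18 (25.7%, against 20.1%) to 30 (42.9%, against 25.5%). The share of mitochondrial genes was above that of cytosolic genes within 200 bp (13 of 81 cytosolic, 18 of 70 mitochondrial genes), by overlap (11 of 81, 18 of 70), within 1000 bp (70.4% of cytosolic, 71.4% of mitochondrial genes) and by the nearest start of any gene (38.3% of cytosolic, 42.9% of mitochondrial genes), the reverse of the order within 500 bp. The difference between subunits stayed below 0, from -16.4 to -0.968 percentage points, under all alternatives run, and was -5.16 to -3.74 with a replicate left out. Summits before the start, 47 of 53, were 11 of 13 within 200 bp (84.6%, against 60.1% of all genes with a region). By the nearest start of any gene they were 25 of 31 (80.6%, against 58.5%). With a replicate left out they were 32 to 47 (94.1% and 88.7%, against 61.6% and 62.4%). Of 45 named genes with a pooled region, 32 had none within 200 bp and 33 none overlapping the start, while 44 kept their value within 1000 bp. No paired analysis was possible because there is 1 group.

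Limits: candidate lists hold background, their lowest values differ between lists, depth is unknown, and 1 region can serve several genes, so counts over genes are not independent.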
